A study of Mus musculus with 12 samples.

Results

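Genes characteristic of the epithelium of the choroid plexus, 10 in number, were followed through the frontal cortex of 12 mice: Ttr, Kl, Clic6, Folr1, Cldn2, Mfrp, F5, Slc4a5, Tmem72 and Calml4. They were chosen by name as a marker list of that epithelium, with earlier results of these data known. All 10 were found by symbol among the 54532 genes of the deposited table. All 10 passed the filter on low counts that left 17307 genes for testing, so none was lost to it. For each gene the level in every library, in CPM (counts scaled to library size with TMM factors of edgeR), and the ratio to Ttr were computed.

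The mice were 9 months old and all carried the APP/PS1 transgenes, which model the amyloid deposition of Alzheimer's disease, so no mouse without the transgenes enters any comparison. In 6 of them (APP/PS1/Hras-/-) the Hras gene, whose product is a Ras GTPase that switches growth signals at the membrane, was also knocked out. Each genotype held 3 males and 3 females, numbered here in accession order. The sources used here name neither the promoter of the transgenes nor the strain background.

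The choroid plexus is a fold of vascular tissue that hangs into the brain ventricles. Its epithelium secretes cerebrospinal fluid by moving sodium, bicarbonate, chloride and water across a single cell layer closed by tight junctions, and it passes hormones, vitamins and secreted proteins from the blood side to the fluid. The plexus is not part of the cortical wall but lies next to it in the lateral ventricle. In bulk libraries such as these, fewer cells of a type and less RNA per cell cannot be told apart.

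Total counts per library ran from 13984692 to 20174131. Hras stood at 73.7 to 102 CPM in the 6 APP/PS1 libraries and at 19.4 to 23.4 CPM in the 6 APP/PS1/Hras-/- libraries, without overlap, so each library matched its genotype label. The 9 markers of cortical neurons, among them Slc17a7 and Camk2a, had counts in every library and summed to between 4969 and 5869 CPM. Nothing in the labels says that mice were littermates or processed together, and p-values refer to the spread between these mice.

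The stretches before the start sites of 4 members are shown because they bracket the range of behaviour described below: Slc4a5, Mfrp and Tmem72 had the steepest relation to Ttr across libraries and Kl had the shallowest. Each is the 250 bases upstream of the RefSeq start site on GRCm38.p6, read 5′ to 3′ on the strand of the gene, and capitals mark each CG dinucleotide. RefSeq promoters were matched for 7 of the 10 members.
Slc4a5 (chr6:83237125-83237374, plus strand): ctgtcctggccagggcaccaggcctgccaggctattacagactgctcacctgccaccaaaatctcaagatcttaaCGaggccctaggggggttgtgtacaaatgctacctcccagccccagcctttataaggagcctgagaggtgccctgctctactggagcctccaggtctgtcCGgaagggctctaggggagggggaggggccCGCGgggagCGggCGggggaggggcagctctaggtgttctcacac
Mfrp (chr9:44101520-44101769, plus strand): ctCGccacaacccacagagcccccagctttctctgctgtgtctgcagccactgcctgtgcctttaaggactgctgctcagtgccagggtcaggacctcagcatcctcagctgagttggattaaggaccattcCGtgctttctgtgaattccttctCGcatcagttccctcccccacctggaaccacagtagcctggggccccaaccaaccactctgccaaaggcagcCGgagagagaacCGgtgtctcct
Tmem72 (chr6:116716759-116717008, minus strand): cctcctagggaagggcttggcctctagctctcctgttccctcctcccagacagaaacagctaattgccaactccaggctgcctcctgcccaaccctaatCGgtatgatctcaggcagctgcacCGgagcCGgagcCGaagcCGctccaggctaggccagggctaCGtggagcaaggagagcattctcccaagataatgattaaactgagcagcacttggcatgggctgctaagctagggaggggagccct
Kl (chr5:150952357-150952606, plus strand): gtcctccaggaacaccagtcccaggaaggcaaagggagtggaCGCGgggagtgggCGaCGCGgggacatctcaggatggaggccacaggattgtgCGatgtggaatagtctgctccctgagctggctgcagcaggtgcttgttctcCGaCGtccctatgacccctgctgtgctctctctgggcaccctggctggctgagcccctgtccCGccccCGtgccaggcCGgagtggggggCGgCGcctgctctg
Kl held 13 CG dinucleotides, a number reached by 31.5% of the 32851 promoters of the same length. The other 6 matched members held 4 to 8, and the median over the 7 was 6. The letters TAATCC, the core bound by Otx-type homeodomain proteins, were searched on both strands because Otx2 is a regulator of this epithelium. They occurred in 1 of the 7 members, on the minus strand of the Mfrp stretch 134 bases before the start site, and in 6.25% of all promoters. The RefSeq starts of Slc4a5, Mfrp and Tmem72 each lie inside the GENCODE gene whose coordinates are given below, so that for Mfrp and Tmem72 part of the stretch, and for Slc4a5 all of it, falls within that gene. The Kl stretch ends at the base before its GENCODE gene.

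Ttr encodes transthyretin, the carrier of thyroxine and of retinol-binding protein that this epithelium secretes in large amounts. The gene lies on chromosome 18. In the APP/PS1 males Ttr stood at 191, 27.8 and 29.6 CPM, and in the APP/PS1 females at 32.3, 2837 and 58.6 CPM. The APP/PS1/Hras-/- males held 9.90, 485 and 317 CPM, and the APP/PS1/Hras-/- females 551, 56.2 and 3.55 CPM. Ttr thus spanned 799-fold over the 12 libraries, with APP/PS1 female 2 at the top, 5.15 times the next library, and APP/PS1/Hras-/- female 3 at the bottom with 64 counts. Within each of the 4 groups the highest library lay far above the lowest, and the groups overlapped. Means were 529 ± 1132 CPM in APP/PS1 and 237 ± 247 CPM in APP/PS1/Hras-/- mice (SD, n = 6 each).

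All 10 members were highest in APP/PS1 female 2, and for all 10 the same 4 libraries held the top 4 places: APP/PS1 female 2, APP/PS1/Hras-/- female 1, and APP/PS1/Hras-/- males 2 and 3. The runner-up was APP/PS1/Hras-/- female 1 for Ttr and APP/PS1/Hras-/- male 2 for the other 9 members. Counts of the 10 members made up 0.329% of the library in APP/PS1 female 2 and 0.0011% in APP/PS1/Hras-/- female 3. Ttr alone supplied between 32.0% of the members' counts, in APP/PS1/Hras-/- female 3, and 92.7%, in APP/PS1 male 1.

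**Figure D1:**
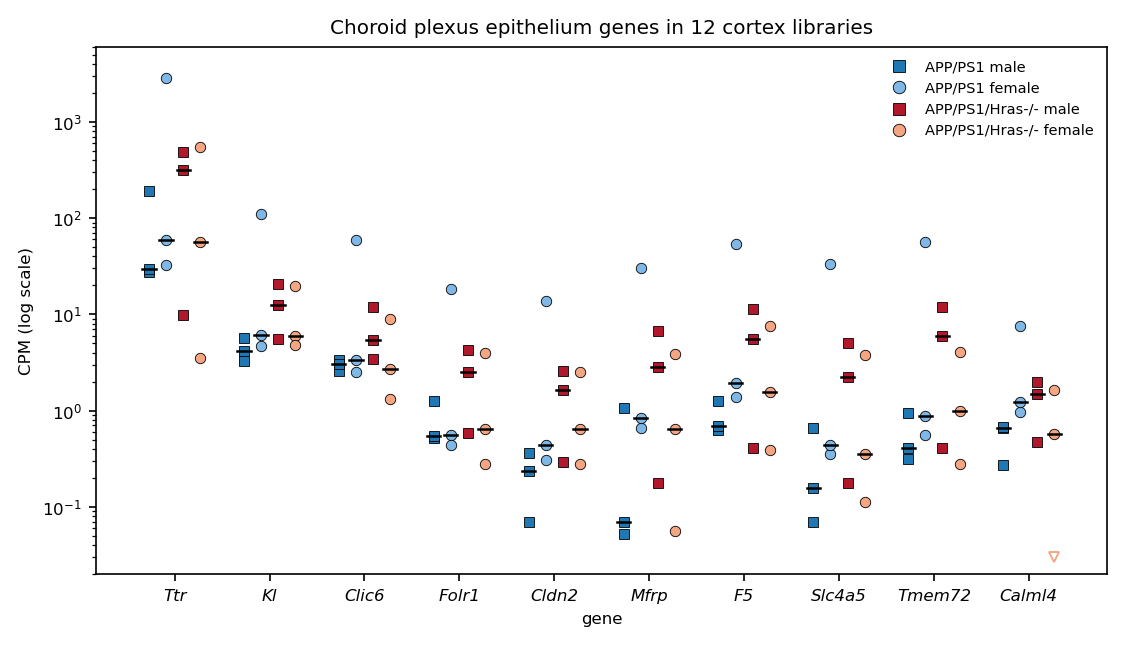
Level of each member in every library, in CPM on a log axis, with squares for males, circles for females and black bars at the median of each group of 3. The open triangle marks the library without a Calml4 count. APP/PS1 female 2 is the top point of every gene, from 7.60 CPM for Calml4 to 2837 CPM for Ttr, and the genotypes overlap for all 10 genes.

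Compared per kilobase of exon, Ttr was the most abundant member by a wide margin. In APP/PS1 female 2 it reached 2392 CPM per kilobase, against 15.3 for Clic6, 11.9 for Kl, 7.95 for Folr1, 7.23 for F5, 7.02 for Mfrp, 5.80 for Slc4a5, 4.18 for Cldn2, 3.31 for Tmem72 and 2.09 for Calml4. In APP/PS1/Hras-/- female 3 Ttr was again first at 2.99 CPM per kilobase, followed by Kl at 0.517 and Clic6 at 0.340, so Kl and Clic6 changed places. Exon lengths are of the union of all annotated exons of a gene, from 1186 bp for Ttr to 17177 bp for Tmem72, so genes with long or alternative exons are placed too low where those exons are not used. Mfrp would also be placed too low if reads of the exons it shares with another gene were not counted.

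Of the transport proteins, Slc4a5 (chromosome 6, 83219828 to 83304945, plus strand of GRCm38) encodes a sodium bicarbonate cotransporter of the fluid-facing membrane. Its 3 APP/PS1 males held 0.654, 0.155 and 0.0688 CPM, the APP/PS1 females 0.355, 33.6 and 0.444, the APP/PS1/Hras-/- males 0.176, 4.999 and 2.24, and the APP/PS1/Hras-/- females 3.76, 0.356 and 0.111. Outside the top 4 libraries no level exceeded 0.654 CPM, which was 11 counts, while APP/PS1 female 2 held 584 counts. Clic6, a member of the chloride intracellular channel family (chromosome 16, 92485736 to 92541243, plus strand), ranged from 1.33 to 59.8 CPM. Outside the top 4 libraries it stayed between 1.33 and 3.40 CPM while Ttr ran from 3.55 to 191 CPM. Folr1, the folate receptor that carries folate into the cerebrospinal fluid (chromosome 7, 101858331 to 101870788, minus strand), ranged from 0.277 to 18.3 CPM, with a median of 0.554 CPM in APP/PS1 and 1.56 CPM in APP/PS1/Hras-/- mice.

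Cldn2 encodes claudin 2, which forms pores for small cations and water in the tight junction (chromosome X, 139800828 to 139811386, plus strand). It ranged from 0.0688 CPM, a single count in APP/PS1 male 3, to 13.9 CPM. Tmem72 encodes a transmembrane protein (chromosome 6, 116679063 to 116716913, minus strand). In males it stood at 0.951, 0.311 and 0.413 CPM in APP/PS1 and at 0.410, 11.9 and 5.91 CPM in APP/PS1/Hras-/- mice. In females it stood at 0.557, 56.8 and 0.888 CPM in APP/PS1 and at 4.09, 0.997 and 0.277 CPM in APP/PS1/Hras-/- mice. The low APP/PS1/Hras-/- male lay among the APP/PS1 males, and the highest female was an APP/PS1 mouse.

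Mfrp encodes a membrane frizzled-related protein (chromosome 9, 44101729 to 44109187, plus strand). Its APP/PS1 males held 1.07, 0.0518 and 0.0688 CPM, the APP/PS1 females 0.659, 30.4 and 0.839, the APP/PS1/Hras-/- males 0.176, 6.72 and 2.86, and the APP/PS1/Hras-/- females 3.89, 0.641 and 0.0555. The lowest 3 libraries rested on 1 count each. All exons of C1qtnf5 lie within exons of Mfrp on the same strand and cover 1589 of the 4334 bp of Mfrp exon. C1qtnf5 had a count of 0 in the table. Reads of the shared exons may have been dropped as ambiguous, which would place Mfrp too low. They may also have been counted under Mfrp, whichever gene they came from. Which of these happened was not tested. On the opposite strand Mfrp shares 54 bp of exon with Rnf26 and 648 bp with Gm20444. All exons of Gm20444 lie within those of Mfrp, and it held 11 counts in all. The library kit keeps strand, but whether the counting used it is not given in these sources.

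Of the remaining secreted, receptor and cytoplasmic proteins, Kl encodes klotho, a coreceptor for fibroblast growth factor 23 that is also shed into the fluid (chromosome 5, 150952607 to 150993817, plus strand). Kl stood at 5.71, 4.20 and 3.30 CPM in APP/PS1 males, 4.71, 111 and 6.17 in APP/PS1 females, 5.51, 20.8 and 12.5 in APP/PS1/Hras-/- males, and 19.8, 5.98 and 4.83 in APP/PS1/Hras-/- females. Outside the top 4 libraries Kl thus kept within 3.30 to 6.17 CPM, and APP/PS1/Hras-/- female 3, the lowest library for Ttr, lay inside that span. F5, coagulation factor V (chromosome 1, 164151838 to 164220277, plus strand), ranged from 0.388 to 53.7 CPM. F5 shares 262 bp of exon with the antisense transcript Gm16548, which held 11 counts in all. Calml4, a calmodulin-like protein (chromosome 9, 62858080 to 62875921, plus strand), was the lowest member per kilobase in APP/PS1 female 2 and ranged up to 7.60 CPM. It had 0 counts in APP/PS1/Hras-/- female 3 and 4 to 25 counts in the 7 libraries between that one and the top 4.

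The comparison that the study's design centres on, APP/PS1/Hras-/- against APP/PS1, gave no call among the members. Across both sexes 0 of 10 members passed edgeR's quasi-likelihood test at a Benjamini-Hochberg adjusted p of 0.05, where 3 of 17307 genes passed (0.0173%). At an unadjusted p under 0.05 lay 0 of 10 members, beside 291 of 17307 genes (1.68%). DESeq2 called 0 of 10. Ttr differed by −0.29 on the log2 scale (SE 1.88, 95% interval −4.53 to 3.95), an interval that reaches far to both sides of no difference. The median log2 difference over the members was −0.35 (range −0.65 to −0.24), beside 0.0024 over all genes tested. Without APP/PS1 female 2 all 10 signs turned and the median became 1.90. DESeq2 on all 12 libraries turned 3 of 10 signs (median −0.09), and with the RNA integrity number as a covariate the median was −1.65. Without APP/PS1/Hras-/- female 2 or female 3, 8 of 10 signs turned and the medians were 0.17 and 0.25.

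In males 0 of 10 members passed, where 2 of 17307 genes did (0.0116%). An unadjusted p under 0.05 was reached by 0 of 10 members, beside 677 of 17307 genes (3.91%). All 10 point estimates were positive, with a median of 2.18 and a range from 1.23 for Clic6 to 3.44 for Tmem72, beside a median of 0.0063 over all genes. Tmem72 had a 95% interval of −1.35 to 8.24 and Ttr, at 1.71 (SE 2.14), one of −3.21 to 6.63. APP/PS1/Hras-/- male 1 was low and its 2 group mates were high, so that for Ttr the 3 APP/PS1 males lay between them. Without APP/PS1/Hras-/- male 2 the median was 1.42, and without APP/PS1 male 1 it was 2.90.

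In females 0 of 10 passed, again with 2 of 17307 genes called (0.0116%). An unadjusted p under 0.05 was reached by 0 of 10 members, beside 659 of 17307 genes (3.81%). All 10 estimates were negative, with a median of −2.30 and a range from −3.45 for Tmem72 to −1.98 for Folr1, beside 0.0021 over all genes. Calml4 came nearest to the threshold at −2.17 (SE 1.06, unadjusted p = 0.0672, edgeR adjusted p = 0.991). Without APP/PS1 female 2 the median was 1.14 and 9 of 10 signs turned, all but that of Calml4. Without APP/PS1/Hras-/- female 1 the median was −4.07.

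**Figure D2:**
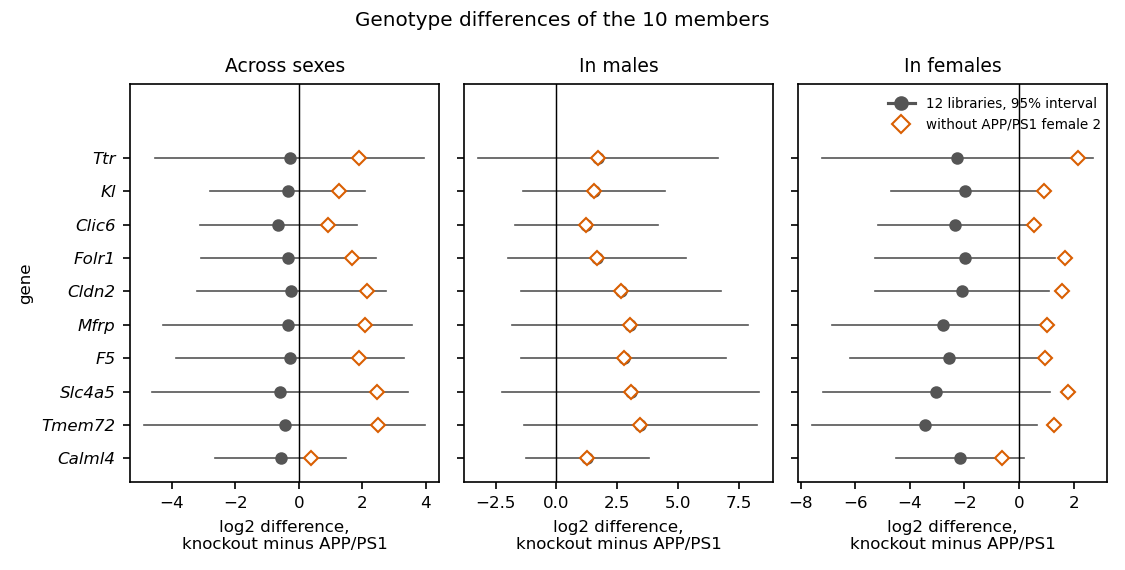
Difference of each member between APP/PS1/Hras-/- and APP/PS1 mice on the log2 scale, across sexes, in males and in females; grey points and lines are estimates and 95% intervals from 12 libraries, and orange diamonds are estimates without APP/PS1 female 2. The intervals across 12 libraries all include 0, and in the first panel all 10 diamonds lie to the right of 0 while all 10 grey points lie to the left.

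The difference between the genotype effects of females and males was tested as an interaction (effect in females minus effect in males). It gave 0 calls among 17307 genes (0%) and 0 of 10 members, and 1 of 10 members, Tmem72, lay at an unadjusted p under 0.05 (−6.89, SE 2.76, unadjusted p = 0.0354, edgeR adjusted p = 0.667). Over all genes 1248 of 17307 (7.21%) lay at such an unadjusted p. DESeq2 also called 0 of 10. All 10 estimates were negative, with a median of −4.35 beside −0.0068 over all genes, and without APP/PS1 female 2 the median was −1.16 and 2 signs turned. Between females and males across genotypes 0 of 10 members passed, where 12 of 17307 genes did (0.0693%), and DESeq2 called 0. An unadjusted p under 0.05 was reached by 0 of 10 members, beside 804 of 17307 genes (4.65%). The median female minus male difference was 1.45 (range 0.89 to 1.85), beside 0.0017 over all genes, and −0.42 without APP/PS1 female 2, when all 10 signs turned.

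The relation of each member to Ttr from mouse to mouse was then measured inside the 4 groups. The log2 CPM of Ttr was added to the model of the 4 group means, so that a slope of 1 means a constant ratio to Ttr and a slope of 0 no relation. Gene and covariate come from the same libraries and share their depth and scaling factors. Of the 9 members other than Ttr, 7 passed with a positive slope in edgeR, where 19 of 17306 genes did (0.11%), and all 9 had a positive slope at an unadjusted p under 0.05, where 398 of 17306 genes (2.3%) had a slope of either sign at such a p. The median slope of the 9 was 0.67, beside −9.92e-05 over all genes. Because the members were chosen with earlier results of these data known, the contrast with all genes is a description and not independent support.

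Slc4a5 followed Ttr with a slope of 0.97 (95% interval 0.86 to 1.09, edgeR adjusted p = 3.41e-06). Mfrp had a slope of 0.90 (0.79 to 1.003) and Tmem72 of 0.88 (0.73 to 1.03). For Slc4a5, Mfrp and Tmem72 the interval included 1. F5 rose with a slope of 0.76 (0.66 to 0.86), Folr1 with 0.67 (0.53 to 0.81), Cldn2 with 0.66 (0.48 to 0.83) and Calml4 with 0.46 (0.32 to 0.60, edgeR adjusted p = 0.0119), and these 4 intervals lay below 1. Clic6 had a slope of 0.48 (0.29 to 0.66, edgeR adjusted p = 0.145) and Kl one of 0.45 (0.26 to 0.64, edgeR adjusted p = 0.254), which did not pass.

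Mfrp, F5, Slc4a5 and Tmem72 passed under every one of the 19 alternatives tried. Leaving out both libraries farthest from the median Ttr, APP/PS1 female 2 and APP/PS1/Hras-/- female 3, left those 4 of 9 called. Without APP/PS1 female 2 alone 6 of 9 passed: Cldn2 (0.46, edgeR adjusted p = 0.0798) and Calml4 (0.45, edgeR adjusted p = 0.181) were lost and Kl (0.29) was gained. Without APP/PS1 female 1 Cldn2 and Calml4 were lost, and without APP/PS1/Hras-/- female 1 Calml4 was lost. DESeq2 called all 9. The counts of all genes called under several of these alternatives are given in the closing section on processing.

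**Figure D3:**
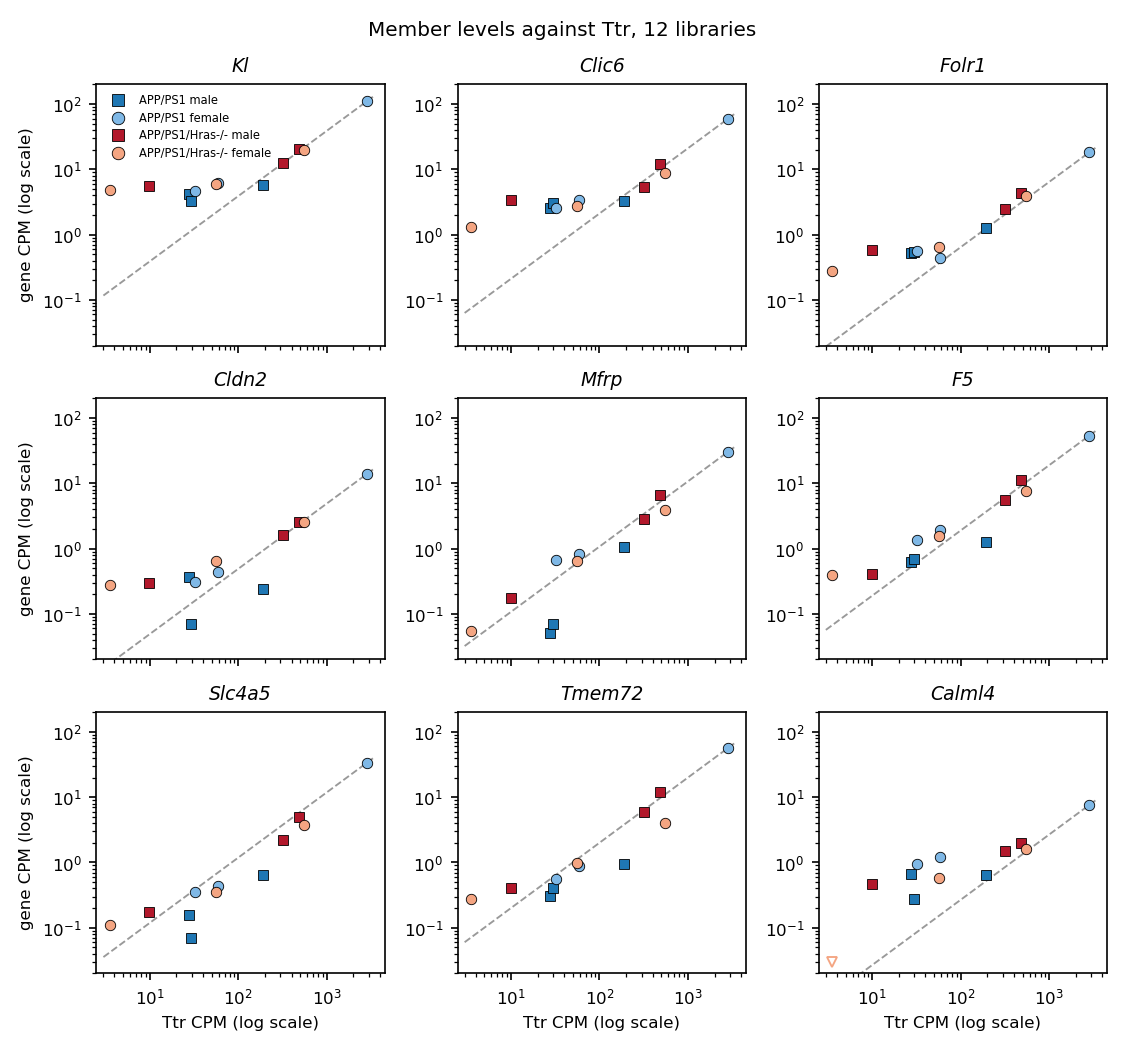
CPM of each of 9 members against CPM of Ttr in the 12 libraries, both on log axes; the dashed line has slope 1 and passes through APP/PS1 female 2, so points on it have that library's ratio to Ttr. For Slc4a5 9 of the other 11 libraries lie below the line and the 2 with the fewest Ttr counts lie above it, whereas Kl and Clic6 lie above it in every library with under 100 CPM of Ttr.

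The ratio to Ttr gives the same relation in reads and compares libraries, not genes. Kl ran from 29.9 reads per 1000 Ttr reads in APP/PS1 male 1 (exact 95% interval 24.2 to 36.6, counting error only) to 1359 in APP/PS1/Hras-/- female 3 (973 to 1908). Mfrp ran from 1.87 in APP/PS1 male 2 (0.0471 to 10.4) to 20.4 in APP/PS1 female 1 (10.8 to 35.1). For 7 of the 9 members the highest ratio was in APP/PS1/Hras-/- female 3, the library with the fewest Ttr counts. Over 12 libraries the median fold between a member's highest and lowest ratio was 17.4, computed with 0.5 added to each count.

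Ratios were closer among the 5 libraries with at least 2000 Ttr counts, a limit chosen after the values were seen. There the median fold was 2.47, computed without an added count, while Ttr itself spanned 14.9-fold in CPM. A range over these 5 libraries cannot exceed that over all 12 by the same measure, so the 2 folds are not directly comparable. Kl ran from 29.9 to 42.9 reads per 1000 Ttr reads, Clic6 from 16.1 to 24.8 and Folr1 from 6.44 to 8.87. Tmem72 stood at 4.98 in APP/PS1 male 1 (exact 95% interval 2.85 to 8.11) and 7.41 in APP/PS1/Hras-/- female 1 (5.69 to 9.50), against 18.6 in APP/PS1/Hras-/- male 3 (15.0 to 22.8), 20.0 in APP/PS1 female 2 (18.8 to 21.3) and 24.5 in APP/PS1/Hras-/- male 2 (21.3 to 28.0). These intervals cover counting error only. APP/PS1 male 1 had the lowest ratio for 6 of 9 members in this set. It also had the lowest RNA integrity number of all libraries, 7.8 against 8.2 to 8.7 elsewhere, and the highest level of Plvap, a marker of fenestrated endothelium, at 20.1 CPM against 5.63 to 15.8 CPM. The part of either in these ratios was not tested.

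Genes outside the members were ranked by the p for a positive slope on Ttr. The 10 with the smallest p and a mean of at least 1 CPM over the 12 libraries included 6 from a list of other choroid plexus genes. A small p also picks genes with a shallow but precisely estimated slope, so these are not the 10 slopes nearest to 1. Kcne2, an accessory subunit of potassium channels, had a slope of 0.91 (edgeR adjusted p = 7.46e-05), from 0.117 to 22.2 CPM. Otx2, a homeodomain transcription factor needed to form the plexus, had a slope of 0.74, and Sostdc1, a secreted antagonist of BMP and Wnt signals, one of 0.60 (edgeR adjusted p = 0.000289 for each). The protein-coding gene 1500015O10Rik had a slope of 0.58, Lbp, which encodes the lipopolysaccharide-binding protein, one of 0.34, and Gm44250, an unverified transcript on chromosome 6, one of 0.19, and all of them passed. Kcnj13 (0.39), Wdr86 (0.39), Zfp185 (0.15) and Slc4a2 (0.11) did not pass, with edgeR adjusted p from 0.138 to 0.145. Each of the 10 was highest in APP/PS1 female 2.

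**Figure D4:**
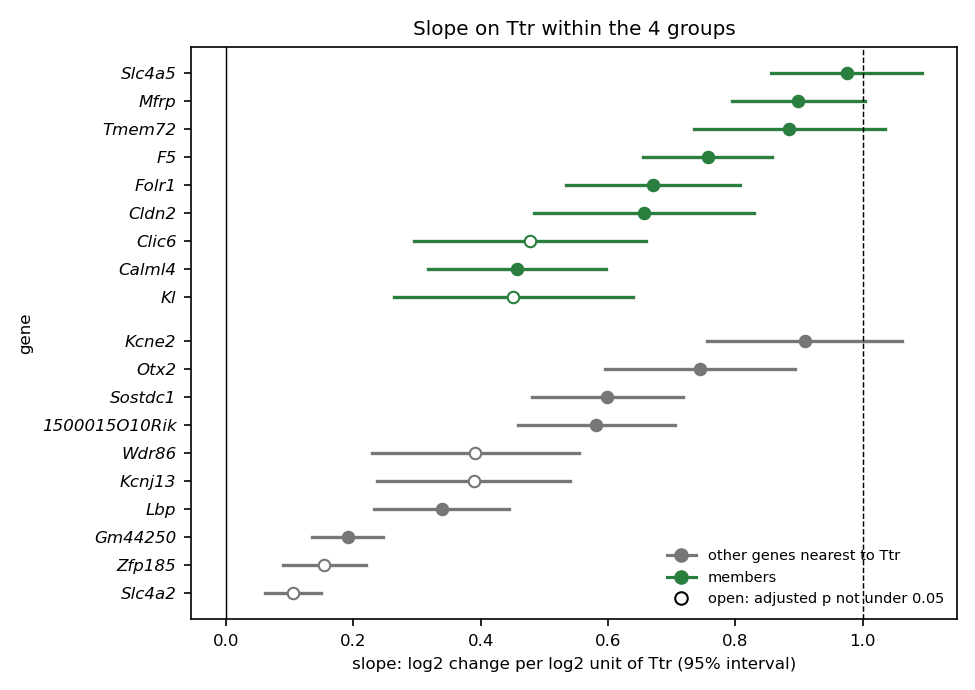
Slope of each gene on Ttr within the 4 groups (log2 change per log2 unit of Ttr) with its 95% interval, for the 9 members in green and 10 other genes in grey. The grey genes, labelled as nearest to Ttr, had the smallest p for a positive slope at a mean of at least 1 CPM. Filled points passed at an adjusted p of 0.05. The members run from 0.45 for Kl to 0.97 for Slc4a5, and Kcne2 lies among the steepest of them at 0.91.

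In a broader list of 36 other genes of the choroid plexus, 34 could be tested and all 34 had a positive slope, with a median of 0.15. Of these, 6 passed: Kcne2, Steap1 (0.80), Otx2, Sostdc1, Krt18 (0.51) and Krt8 (0.44), and 23 lay at an unadjusted p under 0.05, beside the 0.11% and 2.3% of all genes given above for the same tests. The largest slopes were those of Kcne2, Steap1 and Otx2. The smallest were those of Slc4a10 (0.02), Perp (0.02) and Stk39 (0.02), and Slc4a10, a sodium-coupled bicarbonate transporter that neurons also use, stood at 217 to 290 CPM in all libraries. Members and list, both chosen with earlier results of these data known, together made up 13 of the 20 genes called on Ttr. The 1 call with a negative slope was mt-Atp6 (−0.29), named here after its value was seen. In the genotype comparison across sexes 0 of the 34 passed and 0 lay at an unadjusted p under 0.05, beside 0.0173% and 1.68% of all genes.

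Markers of other tissues that a cortical dissection could include gave 0 calls on Ttr in every list, where 20 of 17306 genes passed with either sign. At so low a share, 0 calls in lists this short does not set them apart from other genes. Ependyma, the ciliated lining of the ventricles, had 9 of 10 markers tested, 0 at an unadjusted p under 0.05 and a median slope of −0.01. Over all genes 2.3% lay at such a p. Its summed level was 13.8 to 19.3 CPM in APP/PS1 males, 23.0 to 34.3 in APP/PS1 females, 21.2 to 26.2 in APP/PS1/Hras-/- males and 20.0 to 21.4 in APP/PS1/Hras-/- females. Its lowest library was APP/PS1 male 1 and its highest APP/PS1 female 2, the library with the highest choroid plexus level, and Tmem212 was at 0 in APP/PS1 male 1. The 11 markers of leptomeninges and stroma summed to 79.3 to 129 CPM in APP/PS1 males, 138 to 201 in APP/PS1 females, 84.6 to 165 in APP/PS1/Hras-/- males and 110 to 133 in APP/PS1/Hras-/- females, also with the maximum in APP/PS1 female 2. None of the 11 was at 0 in any library, and the median slope was −0.0015. An unadjusted p under 0.05 was reached by 2 of the 11, Lum (slope 0.10) and Ogn (slope 0.08), beside 2.3% of all genes.

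Striatal markers, such as Ppp1r1b and Penk, all had negative slopes (10 of 10, median −0.09). At an unadjusted p under 0.05 lay 0 of them, beside 2.3% of all genes. Their summed level ran from 223 CPM in APP/PS1 male 1 to 903 CPM in APP/PS1 male 3. Cortical neuron markers had a median slope of −0.0078, and their sum was lowest in APP/PS1 female 2 at 4969 CPM. Of 8 subcortical and hypothalamic markers 4 could be tested (median −0.06), and Hcrt, Pmch, Avp and Oxt, with 7 to 41 counts in all, could not. Brain endothelium (3 markers, median 0.02), blood (2 of 3 tested, median 0.07) and Plvap (0.06) gave no call either. In the genotype and sex comparisons the lists of other tissues also gave 0 calls, where 0% to 0.0693% of all genes passed. For the interaction 5 of 9 ependymal markers lay at an unadjusted p under 0.05, beside 7.21% of all genes, and all 9 were negative. So did 2 of 2 blood, 2 of 9 cortical neuron and 1 of 4 subcortical and hypothalamic markers. In females 3 of 11 markers of leptomeninges and stroma did, and all 11 were negative, beside 3.81% of all genes. The ependymal, subcortical, cortical neuron and blood lists each had 1 in females. In males 1 of 9 ependymal and 1 of 10 striatal markers did, beside 3.91% of all genes. Across sexes all 10 striatal markers were lower in APP/PS1/Hras-/- mice (median −0.31), 1 of them at such a p. Plvap (−0.63), 1 of 11 markers of leptomeninges and stroma and 1 of 2 blood markers also lay at such a p there, beside 1.68% of all genes. Between females and males 1 of 9 cortical neuron markers did, beside 4.65% of all genes. The part of these tissues in the members' differences between groups was not tested.

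**Figure D5:**
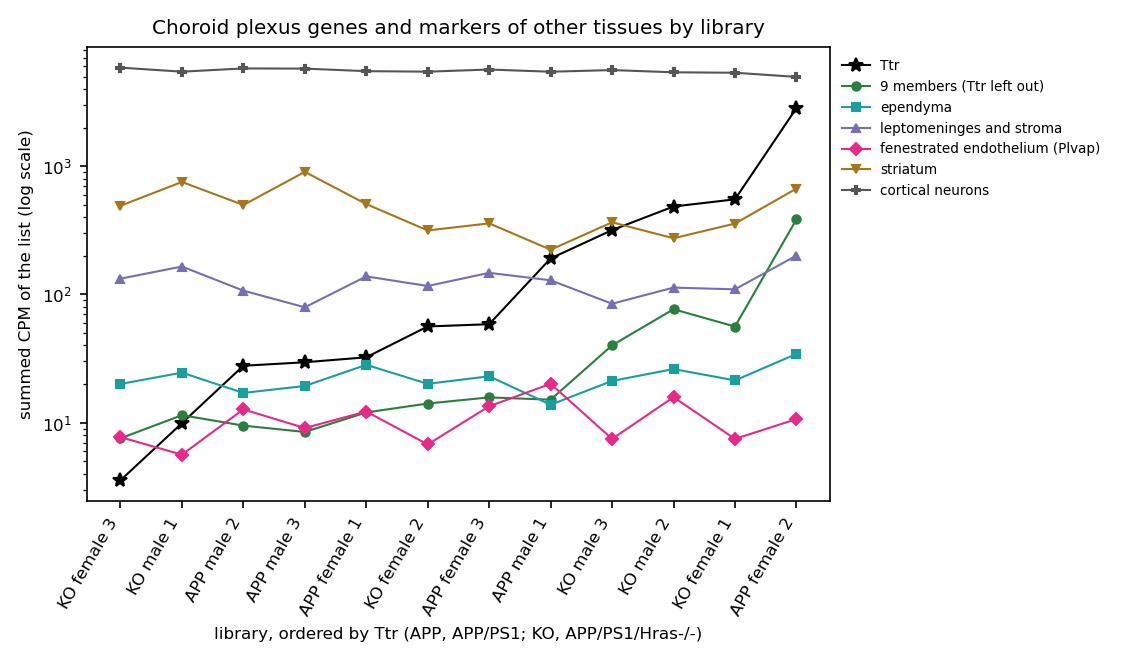
Summed CPM on a log axis for Ttr, the other 9 members and 5 marker lists of other tissues, with the 12 libraries ordered by Ttr. The 9 members sum to 7.54 CPM in the leftmost library, APP/PS1/Hras-/- female 3, and to 385 CPM in the rightmost, APP/PS1 female 2, while ependyma stays between 13.8 and 34.3 CPM and cortical neurons between 4969 and 5869 CPM.

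With Ttr as a covariate in the genotype model, 0 of the 9 remaining members passed in any comparison. The share of all genes called with the covariate is not given here. Without it at most 0.0693% of all genes passed in these comparisons, so 0 of 9 does not set the members apart. The median log2 differences were then 0.26 across sexes, 1.25 in males and −0.56 in females, against −0.35, 2.18 and −2.30 over the 10 members without the covariate. Across sexes 7 of 9 signs turned.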

How the data were processed

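Frontal cortex mRNA of 12 mice was sequenced, with 3 mice in each of 4 groups of genotype and sex. The deposited table holds raw counts per gene, which the authors made, per the submitters' processing notes, with Trimmomatic 0.33, FastQC 0.11.7, HISAT2 2.1.0 and featureCounts. The notes name mm10 and mm9 without a role for each. The kit was stranded per the labels' protocols, and these sources state neither the strand setting nor the annotation used in counting.

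Identifiers were matched to GENCODE M21, and 37 of 54532 (0.0099% of counts) had no match. The test was edgeR's quasi-likelihood F test (edgeR 4.0.16, R 4.3.3, TMM factors, filterByExpr over the 4 groups, robust dispersions, Benjamini-Hochberg adjustment over all genes tested, threshold 0.05) on all 12 libraries, and was checked on simulated data. The simulated counts had the spread of the trend over all genes, so that check does not show what could be detected in the members. Genotype and sex across the other factor came from an additive model, and effects within a sex and the interaction from the 4 group means. The slope added log2 CPM of Ttr with a prior count of 2. Standard errors were derived from the F statistic. Ratios carry exact binomial intervals, which cover counting error only, since the reads carry no molecular identifiers.

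Alternatives were RLE factors, DESeq2 1.42.0, no filter on low counts, the RNA integrity number (RIN) or Ttr as a covariate, no group terms for the slope, each library left out in turn and, for the ratios, at least 100 Ttr counts or a pseudocount of 1. Omission of a pair of libraries, APP/PS1 female 2 with APP/PS1/Hras-/- male 1, was added after seeing the data. Named genes were the members, the 10 other genes with the smallest p for a positive slope on Ttr and a mean of at least 1 CPM, the 3 largest and 3 smallest slopes of the other choroid plexus list, and Hras. Named outside that rule, after values were seen, were Krt18, Krt8, mt-Atp6, Plvap, Tmem212, Lum, Ogn, genes overlapping a member, and markers given as examples or as not testable. The members and the lists (other choroid plexus genes, ependyma, leptomeninges and stroma, fenestrated endothelium as Plvap, brain endothelium, striatum, subcortical and hypothalamic, cortical neurons, blood) were chosen with earlier results of these data known. Promoter sequences are from RefSeq (GRCm38.p6).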

Additional observations from a re-analysis of the deposited data

Results flagged for a closer look

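Each member was examined within each genotype (6 mice) for a library that stood far from the other 5, both in CPM and as reads per 1000 Ttr reads. Of 38 such groups 13 met the criterion, a gap to the nearest library of more than 0.625 of the whole range, which chance meets in about 1 of 20 groups where values are normally distributed. On the log2 scale, a check added after seeing the data, 7 of the 13 met it, all of them levels in CPM, and the levels of Ttr, Mfrp and Calml4 and all 3 ratios did not. The groups are not independent, since the members share their libraries.

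All 10 members stood apart in CPM in the same library, APP/PS1 female 2, among the 6 APP/PS1 mice. It held 2837 CPM of Ttr, 111 of Kl, 59.8 of Clic6, 18.3 of Folr1, 13.9 of Cldn2, 30.4 of Mfrp, 53.7 of F5, 33.6 of Slc4a5, 56.8 of Tmem72 and 7.60 of Calml4. Among APP/PS1/Hras-/- mice 3 ratios stood apart. Cldn2 reached 78.1 and F5 109 reads per 1000 Ttr reads in APP/PS1/Hras-/- female 3, from 5 and 7 counts over 64 Ttr counts. Calml4 reached 47.3 in APP/PS1/Hras-/- male 1, from 8 counts over 169 Ttr counts.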

How the results depend on the processing

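No paired analysis was possible because the labels give the groups no shared replicate numbers, and the numbers used here follow accession order. In each of the 5 genotype and sex comparisons 0 of 10 members passed under any of 18 alternatives, and the lowest adjusted p was 0.998 across sexes, 0.818 in males, 0.785 in females, 0.465 for the interaction and 0.720 for sex. With each library left out in turn, Ttr ran from −0.86 to 1.91 across sexes, from −5.05 to 2.16 in females, from −6.76 to 0.45 for the interaction and from −0.60 to 2.20 for sex. Its sign turned across sexes on omission of APP/PS1/Hras-/- female 2 (0.31) or female 3 (0.35), and of APP/PS1 female 2 (1.91), which also turned it in females (2.16), for the interaction (0.45) and for sex (−0.60). With APP/PS1/Hras-/- male 1 and APP/PS1 female 2 both omitted, a choice made after seeing the data, Ttr was 2.22 across sexes, 2.16 in females and −0.93 for sex, and 5 of 9 members passed on the slope. DESeq2 turned 3 of 10 signs across sexes (median −0.09), and with RIN as a covariate the median was −1.65. On the slope 7 of 9 members passed, 5 to 7 with each library left out in turn, and 4 without the pair of libraries farthest from the median Ttr. DESeq2 and the fit without group terms called 9. Genes called overall were 3, 2, 2, 12 and 20 across sexes, in males, in females, for sex and on the slope, against 7, 4, 5, 27 and 37 with DESeq2. Without a filter on low counts they were 5 across sexes and 4 in females. On the slope 33 genes passed without group terms, 11 without APP/PS1 female 1, 12 without APP/PS1 female 2 and 6 without either pair of libraries, and for sex 20 passed without APP/PS1/Hras-/- male 2. Median ratios to Ttr moved by less than 1 SD between libraries under all 14 alternatives. Libraries with few Ttr counts, down to 64, limit the ratios and the lower end of the slopes.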
